A study of Mus musculus with 16 samples.

Results

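The genes described here encode the machinery that carries glucose into a macrophage and breaks it down: glucose carriers, the enzymes of glycolysis and of the pentose phosphate pathway, lactate dehydrogenase, lactate carriers and the pyruvate dehydrogenase step. They are the rows of 39 gene symbols, listed by function, among the 35275 genes of the count table. Of these, 38 passed the filter on low counts, as did 13080 genes of the whole table. The exception was Pdk4, a pyruvate dehydrogenase kinase, which stayed between 0 and 0.104 CPM (counts relative to the TMM-scaled library total) in the 16 libraries.

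Polyadenylated RNA was sequenced from macrophages grown out of the tibial marrow of C57BL/6 mice, in 4 groups of 4 libraries. Control mice were Smad7 fl/fl littermates, whose floxed Smad7 alleles stay intact (fl/fl). The other mice carried Smad7 fl/fl together with CAGGCre-ER, a tamoxifen-inducible Cre recombinase that the CAGG promoter drives throughout the body, so that deletion of Smad7 was global and not limited to macrophages (KO). Both genotypes had tamoxifen (20 mg/kg for 5 days) at the age of 1 month, with marrow collected 2 weeks after it. The culture medium held 15% serum and the macrophage growth factor CSF-1, first at 12 ng/ml (24 hours) and then at 120 ng/ml (48 hours), before about 12 hours of serum starvation. In each genotype, 1 group then received 10 ng/ml of TGF-β1 over 4 hours and 1 received none. The extraction protocol speaks of 8 cDNA libraries where the labels list 16. Nothing says whether the libraries of a group came from separate animals, so the p-values measure only the spread between these samples, which may be technical.

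Glycolysis traps glucose as glucose 6-phosphate through hexokinase, commits it at phosphofructokinase, and splits it into pyruvate with a gain of ATP. Pyruvate is either reduced to lactate, which leaves the cell through monocarboxylate carriers, or enters mitochondria through the pyruvate dehydrogenase complex, which PDH kinases switch off. The pentose phosphate pathway diverts glucose 6-phosphate to make NADPH, used in macrophages for the oxidative burst and for antioxidant defence, and ribose for nucleotides. Many of these enzymes exist as isozymes with different control, and inflammatory macrophages are known for a high rate of glycolysis. TGF-β signals through receptor-activated Smads, and Smad7, which TGF-β itself induces, restrains that signal.

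Totals of counts ran from 16865591 to 23741079 per library, and the 39 genes together took between 1.12% and 1.49% of the counts of a library. The macrophage markers were abundant, with Csf1r at 3964 CPM or more and Lyz2 at 6531 CPM or more in every library. Of the neutrophil, T and NK cell and B cell lists, 2 of 12, 3 of 8 and 2 of 8 genes had no count in any library, among them Ly6g, Cd3e and Pax5. The highest others were Csf3r at 59.6 to 141 CPM, Cd4 at 4.79 to 10.7 CPM and Cd79b at up to 3.45 CPM. As a check of the labels, Smad7 itself had 3.89 to 6.03 CPM in untreated fl/fl, 37.3 to 58.3 in fl/fl with TGF-β1, 1.28 to 5.87 in untreated KO and 10.3 to 19.7 in KO with TGF-β1. The genotypes differed at an edgeR adjusted p of 0.423 (untreated) and 0.122 (TGF-β1) with all libraries, and of 0.0322 and 0.00089 without KO untreated replicate 1. The library labelled KO untreated replicate 1 stood apart, with the 5.87 CPM of Smad7 against 1.28 to 2.00 in the other 3 of its group. In 31 of the 38 tested members it lay within the range of the KO TGF-β1 libraries, and in 25 it lay outside the range of the other 3 untreated KO libraries. The second count was not particular to it. It was the highest of its group in 11 members and the lowest in 14. For KO untreated replicate 2 these numbers were 19 and 7, and for KO TGF-β1 replicate 1 they were 8 and 22. They were not counted over all genes. The counts of called members, and the KO response of each called member, are given with and without the library labelled KO untreated replicate 1, whose label was not changed.

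Across the pathway the steady-state levels per gene length spanned a wide range. On the deposited FPKM scale (fragments per kilobase of gene, scaled to library size), Gapdh, which oxidises glyceraldehyde 3-phosphate, had the highest fl/fl untreated level at 1376 ± 131 FPKM (SD, n = 4). Pkm, pyruvate kinase, followed at 1017 ± 105 FPKM and Aldoa, the main aldolase, at 908 ± 79.6 FPKM (SD, n = 4 each). The libraries of Pkm and Aldoa overlapped, from 883 to 1126 and from 802 to 991 FPKM, so their order lies within the spread. Below them came the transaldolase Taldo1 at 417 ± 32.0, the enolase Eno1 at 353 ± 33.2 and Pgd, the decarboxylating dehydrogenase of the oxidative branch, at 314 ± 16.9 FPKM (SD, n = 4 each). In all, 12 members were at or above 100 FPKM, among them the pentose phosphate genes G6pdx, Pgd, Tkt and Taldo1. The 13 members under 10 FPKM included the lactate carrier Slc16a1 at 1.31 ± 0.196 FPKM and the regulatory enzyme Pfkfb3 at 5.79 ± 0.265 FPKM (SD, n = 4 each). Among the hexokinases the myeloid isozyme Hk3 led in fl/fl untreated libraries at 98.5 ± 4.71 FPKM, ahead of Hk1 at 32.4 ± 2.04 and Hk2 at 9.78 ± 1.03 FPKM (SD, n = 4 each). The ranges of these 3 hexokinases did not overlap.

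With TGF-β1, a small set of glycolytic genes was higher in fl/fl macrophages. Hexokinase 2 (Hk2) rose most, followed by Ldhb, Pfkfb3, Pfkl, Eno1 and Pgam1, and the kinase Pdk1 fell. That is 7 of 38 tested members (18.4%), 6 higher and 1 lower, at an edgeR adjusted p under 0.05, where 15.5% of all 13080 tested genes were called. The median log2 fold change of the members was 0.06, against -0.01 over all tested genes, but 0.00 without fl/fl TGF-β1 replicate 4 and 0.03 without fl/fl untreated replicate 1. The share called is thus near that of the whole table. In bulk RNA, fewer cells of a type and less RNA per cell cannot be told apart. Without fl/fl untreated replicate 1, fl/fl TGF-β1 replicate 1 or fl/fl TGF-β1 replicate 4 the count was 4 (10.5%), since Eno1, Pgam1 and Pdk1 then missed the threshold, and 10.5%, 13.1% and 13.1% of all tested genes were called. With the replicate number as a block within genotype, 9 members were called in fl/fl, the 7 with Pfkp and G6pdx, against 16.8% of all tested genes.

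In KO macrophages the calls depended on the library labelled KO untreated replicate 1. With all 16 libraries, 1 of 38 members (Ldhb, 2.63%) was called, against 5.17% of all tested genes. Without that library, 6 members were higher (Hk2, Ldhb, Pfkl, Eno1, Pfkfb3 and Pgam1) and 2 lower (G6pdx and Hk3), 8 of 38 or 21.1%, against 15.2% of all tested genes. The fl/fl comparison in that same fit called 9 of 38 members (23.7%), the 7 above and the lower Pfkp and G6pdx, against 18.1% of all tested genes. Of these, 7 members were called in both genotypes, 7 of the 9 fl/fl calls and 7 of the 8 KO calls. Leaving out any other library gave 0 calls in KO, except for 1 call (Pgam1) without fl/fl TGF-β1 replicate 4. Among these fits the Ldhb call held only without KO untreated replicate 1. With all libraries and the replicate block within genotype, 4 members were called in KO (Hk2, Ldhb, Pgam1 and G6pdx), against 7.6% of all tested genes.

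**Figure D1:**
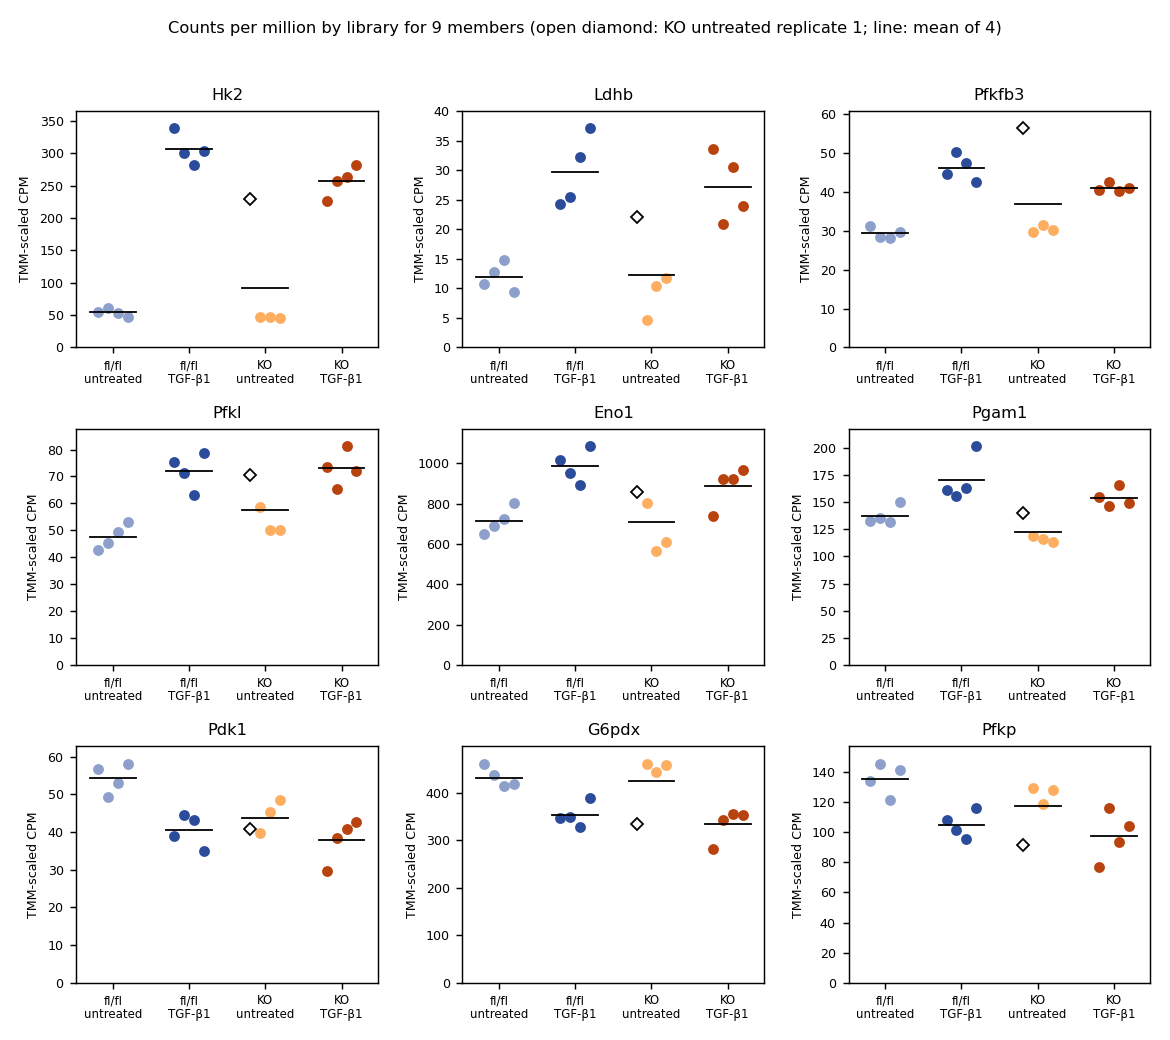
TMM-scaled CPM (y axis, from 0) of 9 members in each library, by group; points are libraries, the open diamond is the library labelled KO untreated replicate 1, and lines are means of 4. Hk2 runs from 45.5 to 61.3 CPM in the untreated libraries other than the diamond, which is at 229 CPM, and from 226 to 338 CPM with TGF-β1.

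**Figure D2:**
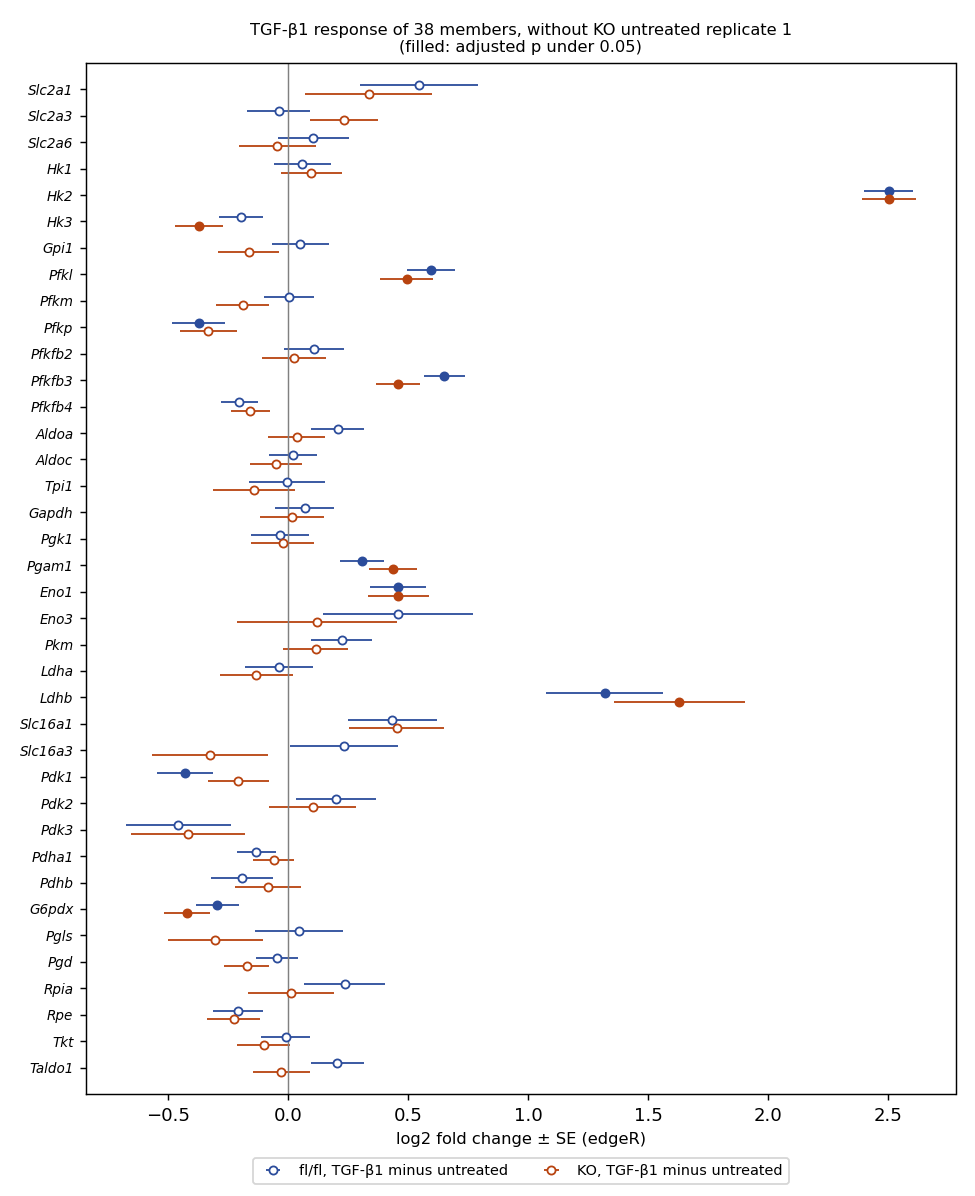
Log2 fold change ± SE (edgeR; x axis) of TGF-β1 against untreated for the 38 tested members, in fl/fl and KO, from the fit without the library labelled KO untreated replicate 1; filled points passed an adjusted p of 0.05. Hk2 and Ldhb lie far to the right in both genotypes, and most members lie near 0.

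Promoter sequence is shown for Hk2 and Pfkfb3, which rose, and for the lactate dehydrogenase pair, of which Ldhb rose and Ldha did not pass. The 250 bases before the transcription start are from RefSeq (GRCm38.p6), 5′ to 3′ on the strand of the gene. Capitals mark ACGTG, a form of the core of the binding site of hypoxia-inducible factors, or CACGT where it lies on the other strand. Other forms of that core were not searched.
Hk2, chr6:82774455-82774704, minus strand: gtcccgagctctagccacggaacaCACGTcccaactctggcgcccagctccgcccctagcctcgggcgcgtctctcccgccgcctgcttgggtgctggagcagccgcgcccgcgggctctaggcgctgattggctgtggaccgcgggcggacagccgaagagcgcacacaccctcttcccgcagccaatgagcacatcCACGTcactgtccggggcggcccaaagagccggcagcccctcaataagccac
Pfkfb3, first window, chr2:11502091-11502340, minus strand: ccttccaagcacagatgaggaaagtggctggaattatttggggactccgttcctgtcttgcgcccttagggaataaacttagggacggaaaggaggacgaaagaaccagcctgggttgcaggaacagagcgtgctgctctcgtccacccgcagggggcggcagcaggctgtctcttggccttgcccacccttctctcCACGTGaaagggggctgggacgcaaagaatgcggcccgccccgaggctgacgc
Ldha, first window, chr7:46845554-46845803, plus strand: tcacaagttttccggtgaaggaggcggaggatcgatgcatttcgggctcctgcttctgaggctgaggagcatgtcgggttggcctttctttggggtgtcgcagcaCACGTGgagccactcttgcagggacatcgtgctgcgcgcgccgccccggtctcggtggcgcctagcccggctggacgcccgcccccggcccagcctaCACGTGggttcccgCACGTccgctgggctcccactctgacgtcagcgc
Ldhb, chr6:142507958-142508207, minus strand: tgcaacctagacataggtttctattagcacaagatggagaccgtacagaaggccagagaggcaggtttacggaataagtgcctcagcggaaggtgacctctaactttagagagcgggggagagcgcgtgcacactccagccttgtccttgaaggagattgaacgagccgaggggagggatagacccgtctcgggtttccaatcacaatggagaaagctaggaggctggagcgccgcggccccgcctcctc

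Counting both strands, ACGTG occurred 2 times in the Hk2 window, 2 times in the first Pfkfb3 window (1 time in the second, not shown), 5 times in the first Ldha window and 0 times in that of Ldhb. The letters CACGTG, an E-box, read as ACGTG on either strand and so count 2 times. RefSeq windows were found for 38 members (Slc2a3 was not matched), 55 windows in all, and 20 of them (36.4%) held ACGTG, against 16.6% of 32851 windows of the same length in the table. By gene, 3 of the 6 members called higher in fl/fl held ACGTG in a window (Hk2, Pfkfb3 and Pgam1), as did 13 of the other 32. Over all 27025 genes with a window the share was 18.5%. CACGTG was in 10.9% of member windows against 6.02% of all windows, and GGCGCC, known from BMP-responsive promoters, in 20% against 9.59%. CAGAC, a Smad-binding sequence, was in 29.1% of member windows and 42.2% of all windows. These are counts of letters in a window and say nothing of binding.

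Glucose carriers did not pass in either genotype. Slc2a1, the basal glucose carrier GLUT1, was at 24.8, 32.0, 30.4 and 48.0 CPM in fl/fl untreated and 48.2, 51.6, 41.5 and 56.8 CPM in fl/fl TGF-β1 libraries, a log2 difference of 0.55 ± 0.26 (edgeR adjusted p = 0.184). The highest untreated library reached into the TGF-β1 range. Slc2a3, the high-affinity carrier GLUT3, and Slc2a6, a lysosomal carrier of macrophages, differed by log2 -0.04 ± 0.14 and 0.11 ± 0.16. In KO cells without the library labelled untreated replicate 1, the 3 carriers lay between log2 -0.05 and 0.34, and their smallest edgeR adjusted p was 0.368.

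Hexokinase 2, the inducible enzyme that binds mitochondria, had the largest change of all members. Hk2 (ENSMUSG00000000628, chromosome 6, 82725025 to 82774454, mm10, minus strand) was at 54.1, 61.3, 53.2 and 47.3 CPM in fl/fl untreated and at 338, 301, 282 and 304 CPM in fl/fl TGF-β1 libraries. The groups were far apart, a 5.68-fold difference (log2 2.51 ± 0.44, edgeR adjusted p = 0.0019). In KO untreated libraries Hk2 was at 229, 46.7, 46.5 and 45.5 CPM, and with TGF-β1 at 226, 257, 264 and 281 CPM. The first of the untreated KO libraries lay inside the TGF-β1 range, and the other 3 lay together below it. With that library the KO difference was log2 1.48 ± 0.42 (edgeR adjusted p = 0.0569, and 0.0232 with the replicate block within genotype), and without it 2.50 ± 0.11, or 5.66-fold (edgeR adjusted p = 4.01e-11). The fl/fl call held in each of the 16 fits that left out a library. An antisense transcript in the Hk2 locus, Gm17034, had a mean of 9.19 counts against 3466 for Hk2.

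Neither of the other hexokinases rose. Hk1, the ubiquitous isozyme, differed by log2 0.06 ± 0.12 in fl/fl. Hk3 was at 297, 324, 320 and 328 CPM in fl/fl untreated and 281, 266, 244 and 320 CPM in fl/fl TGF-β1 libraries, which overlap (log2 -0.19 ± 0.12, edgeR adjusted p = 0.319). In KO cells Hk3 was at 203, 275, 298 and 274 CPM untreated and 193, 213, 233 and 217 CPM with TGF-β1. Without the library labelled untreated replicate 1, the first of these values, the groups did not overlap and Hk3 fell by 0.37 ± 0.10 on the log2 scale (edgeR adjusted p = 0.0146). With it the difference was log2 -0.29 ± 0.12 (edgeR adjusted p = 0.18). The opposite-strand neighbour Unc5a overlaps Hk3 and had a mean of 84.3 counts against 5321.

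Of the phosphofructokinase isozymes, Pfkl rose in fl/fl, and Pfkp was lower but passed only in some of the fits. Pfkl, the liver-type enzyme (ENSMUSG00000020277, chromosome 10, 77986947 to 78010083), was at 42.6, 45.4, 49.3 and 53.1 CPM in fl/fl untreated and 75.5, 71.4, 63.0 and 78.6 CPM in fl/fl TGF-β1 libraries. The groups did not overlap (log2 0.60 ± 0.12, 1.52-fold, edgeR adjusted p = 0.00276). In KO it was at 70.6, 58.6, 50.2 and 50.2 CPM untreated and 73.6, 65.4, 81.3 and 72.0 CPM with TGF-β1. With the first KO library the groups overlapped (log2 0.35 ± 0.12, edgeR adjusted p = 0.102), and without it Pfkl rose by log2 0.49 ± 0.11 (edgeR adjusted p = 0.00338).

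Pfkp, the platelet-type enzyme (ENSMUSG00000021196, chromosome 13, 6579768 to 6648777), was at 135, 146, 121 and 142 CPM in fl/fl untreated and 108, 101, 95.4 and 116 CPM in fl/fl TGF-β1 libraries. The groups did not overlap, yet the edgeR adjusted p was 0.0668 with all libraries (log2 -0.37 ± 0.13), and 0.0245 without the library labelled KO untreated replicate 1. Deviations of same-numbered fl/fl libraries were weakly correlated (r from 0.123 to 0.181). With the replicate number as a block within each genotype the edgeR adjusted p of Pfkp was 0.0127. In KO the log2 difference was -0.26 ± 0.13 with that library and -0.33 ± 0.12 without it, and neither passed (edgeR adjusted p = 0.32 and 0.0713). Pitrm1, on the other strand, overlaps Pfkp with a mean of 934 counts against 2266. Its log2 difference was -0.01 ± 0.09 in fl/fl, and since strand was not stated for the counting, reads of the shared bases cannot be assigned. Pfkm, the muscle-type enzyme, differed by log2 0.01 ± 0.10.

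The PFKFB enzymes make or remove fructose 2,6-bisphosphate, the strongest activator of phosphofructokinase, and Pfkfb3 is the form with the highest kinase activity. Pfkfb3 (ENSMUSG00000026773, chromosome 2, 11471430 to 11502101) was at 31.3, 28.4, 28.1 and 29.8 CPM in fl/fl untreated and 44.7, 50.3, 47.4 and 42.7 CPM in fl/fl TGF-β1 libraries. The groups were well separated (log2 0.65 ± 0.16, 1.57-fold, edgeR adjusted p = 0.00923). In KO it was at 56.4, 29.7, 31.6 and 30.4 CPM untreated and 40.6, 42.5, 40.2 and 41.0 CPM with TGF-β1. The first of these libraries exceeded all KO TGF-β1 libraries, and without it Pfkfb3 rose by log2 0.46 ± 0.09 (edgeR adjusted p = 0.00169), against 0.15 ± 0.16 with it. Pfkfb4, another form, differed by log2 -0.20 ± 0.08 in fl/fl (edgeR adjusted p = 0.117) and Pfkfb2 by 0.11 ± 0.12. Pfkfb2 shares bases with Yod1 on the other strand, whose mean of 298 counts exceeded its 270.1, so the value of Pfkfb2 is uncertain.

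Gpi1, the aldolases Aldoa and Aldoc and the triose isomerase Tpi1, which carry the sugar phosphates through the middle of the pathway, did not pass. Their log2 differences in fl/fl were 0.06 ± 0.13, 0.21 ± 0.12, 0.03 ± 0.10 and 0.00 ± 0.17. In KO without the library labelled untreated replicate 1 they lay between -0.16 and 0.04.

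In the energy-yielding steps, Pgam1 and Eno1 rose and Gapdh, Pgk1, Pkm and Eno3 did not pass. Eno1, the common enolase (ENSMUSG00000063524, chromosome 4, 150236721 to 150248879), was at 651, 687, 722 and 802 CPM in fl/fl untreated and 1016, 950, 893 and 1085 CPM in fl/fl TGF-β1 libraries. The groups did not overlap (log2 0.46 ± 0.14, 1.38-fold, edgeR adjusted p = 0.0272). In KO it was at 859, 803, 565 and 609 CPM untreated and 738, 923, 921 and 969 CPM with TGF-β1. The KO groups overlapped also without the library labelled untreated replicate 1, in which fit Eno1 rose by log2 0.46 ± 0.13 (edgeR adjusted p = 0.0191). With it the difference was 0.32 ± 0.14 (edgeR adjusted p = 0.202).

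Pgam1, phosphoglycerate mutase (ENSMUSG00000011752, chromosome 19, 41911871 to 41918664), was at 133, 135, 131 and 150 CPM in fl/fl untreated and 161, 156, 163 and 202 CPM in fl/fl TGF-β1 libraries. The lowest TGF-β1 library stood just above the highest untreated library (log2 0.31 ± 0.10, edgeR adjusted p = 0.0495), and the call held in 3 of the 16 fits that left out a library. In KO, Pgam1 was at 140, 119, 116 and 113 CPM untreated and 154, 147, 166 and 149 CPM with TGF-β1. These groups did not overlap, with log2 0.33 ± 0.10 (edgeR adjusted p = 0.0692, and 0.04998 with the replicate block within genotype) with all libraries and 0.44 ± 0.10 (edgeR adjusted p = 0.00485) without the first. Of the near-identical copies of these genes, Eno1b had a mean of 15.7 counts, Pgam1-ps2 had 16.4, and the 50 copies of Gapdh in the count table had 0.175% of the counts of Gapdh and these copies.

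Gapdh and Pgk1, the first ATP-yielding pair of reactions, differed by log2 0.07 ± 0.13 and -0.03 ± 0.13 in fl/fl. Pkm differed by 0.23 ± 0.13 (edgeR adjusted p = 0.278). Eno3, the muscle enolase, stayed at 5.79 CPM or less in every library.

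At the lactate step, the heart-type subunit Ldhb changed and the muscle-type Ldha did not pass. Ldhb (ENSMUSG00000030246, chromosome 6, 142490249 to 142507957) was at 10.7, 12.8, 14.8 and 9.38 CPM in fl/fl untreated and 24.3, 25.5, 32.3 and 37.1 CPM in fl/fl TGF-β1 libraries. Every TGF-β1 library lay above every untreated library (log2 1.32 ± 0.32, 2.50-fold, edgeR adjusted p = 0.0103). In KO it was at 22.1, 4.57, 10.5 and 11.8 CPM untreated and 33.6, 20.9, 30.6 and 24.0 CPM with TGF-β1. The first untreated library exceeded the lowest TGF-β1 library, and the difference was log2 1.15 ± 0.32 (edgeR adjusted p = 0.0474) with it and 1.63 ± 0.27, or 3.09-fold (edgeR adjusted p = 0.000278) without it. Ldha, whose tetramers favour lactate formation, was at 248, 271, 319 and 377 CPM in fl/fl untreated and 282, 275, 282 and 347 CPM in fl/fl TGF-β1 libraries, the second range lying within the first (log2 -0.03 ± 0.15). The promoter window of Ldha printed above holds 5 matches of ACGTG and that of Ldhb none, with other forms of the core not searched.

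The lactate carriers did not pass. Slc16a1 (MCT1) was at 4.97 to 6.98 CPM in fl/fl untreated and 6.46 to 10.3 CPM in fl/fl TGF-β1 libraries (log2 0.44 ± 0.19, edgeR adjusted p = 0.133). Slc16a3 (MCT4), the export carrier of glycolytic cells, differed by log2 0.24 ± 0.23.

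At the entry to mitochondria, Pdk1, a kinase that inactivates pyruvate dehydrogenase (ENSMUSG00000006494, chromosome 2, 71873224 to 71903858), was at 56.9, 49.4, 53.2 and 58.2 CPM in fl/fl untreated and 39.1, 44.6, 43.1 and 35.1 CPM in fl/fl TGF-β1 libraries. The groups did not overlap and Pdk1 fell by 0.43 ± 0.12 on the log2 scale (edgeR adjusted p = 0.0197). In KO it was at 40.9, 39.8, 45.4 and 48.5 CPM untreated and 29.6, 38.5, 40.8 and 42.7 CPM with TGF-β1. These overlap with and without the first library (log2 -0.20 ± 0.12 and -0.21 ± 0.13), and the fl/fl and KO responses of Pdk1 differed by 0.22 ± 0.17 without it (edgeR adjusted p = 0.982). Pdk2 and Pdk3, the other measured kinases, and the E1 subunits Pdha1 and Pdhb did not pass, at log2 0.20 ± 0.17, -0.46 ± 0.22, -0.13 ± 0.09 and -0.19 ± 0.13 in fl/fl.

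In the pentose phosphate pathway, G6pdx, the entry enzyme that makes NADPH, was called lower in both genotypes without the library labelled KO untreated replicate 1 and in neither with all libraries. G6pdx (ENSMUSG00000031400, chromosome X, 74409483 to 74429194) was at 460, 437, 414 and 418 CPM in fl/fl untreated and 348, 349, 328 and 388 CPM in fl/fl TGF-β1 libraries. The groups did not overlap, with log2 -0.29 ± 0.11 and an edgeR adjusted p of 0.0973 with all libraries. It was 0.0281 without the library labelled KO untreated replicate 1, and 0.0483 with the replicate block within genotype (KO 0.0425). In KO, G6pdx was at 334, 461, 445 and 458 CPM untreated and 282, 344, 355 and 352 CPM with TGF-β1. The first untreated library lay within the TGF-β1 range, and without it G6pdx fell by 0.42 ± 0.10 on the log2 scale (edgeR adjusted p = 0.00468), against log2 -0.35 ± 0.11 (edgeR adjusted p = 0.0846) with it. Its opposite-strand neighbour Ikbkg, whose gene interval overlaps it, had a mean of 1986 counts against 7665 and a log2 difference of -0.03 ± 0.10 in fl/fl. No transcript of another gene shared at least 150 bases at 97% identity with the coding transcripts of G6pdx.

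The lactonase Pgls, the dehydrogenase Pgd and the non-oxidative enzymes Rpia, Rpe, Tkt and Taldo1, which interconvert sugar phosphates, did not pass in either genotype with or without that library. In fl/fl with all libraries their log2 differences lay between -0.20 (Rpe) and 0.24 (Rpia). The value of Rpe is uncertain, since it shares bases with Kansl1l on the other strand, at a mean of 421.6 counts against 406.1.

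The share of each isozyme in the summed FPKM of its step was compared between treatments. No share passed after adjustment, which the few libraries made likely from the start. Hk2 went from 6.96 ± 0.730% to 31.7 ± 1.92% of hexokinase FPKM in fl/fl (SD, n = 4 each), and Hk3 from 70% ± 1.07 to 49.0 ± 2.16%. In KO, Hk2 went from 12.6 ± 11.9% (SD, n = 4), or 6.68 ± 0.225% (SD, n = 3) without the library labelled untreated replicate 1, to 32.4 ± 1.25% (SD, n = 4). Pfkl went from 25.4 ± 2.07% to 38.5 ± 1.23% of phosphofructokinase FPKM in fl/fl, while Pfkp went from 58.0 ± 3.06% to 44.9 ± 0.740% (SD, n = 4 each). The summed phosphofructokinase level itself ran from 47.3 to 52.6 FPKM untreated and from 45.1 to 53.6 FPKM with TGF-β1, which overlap. For the hexokinases the sums did not overlap, at 132 to 146 and 154 to 189 FPKM.

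Pfkfb3 went from 18.7 ± 0.954% to 28.7 ± 1.70% of PFKFB FPKM and Ldhb from 5.18 ± 1.29% to 11.9 ± 1.37% of lactate dehydrogenase FPKM in fl/fl (SD, n = 4 each). Each of these fl/fl shares (the lactate dehydrogenase pair as 1 test) had groups that did not overlap and p = 0.0286 by an exact two-sided permutation test, the smallest that 4 against 4 libraries can give. After adjustment over 38 share tests the exact permutation p was 0.121, so 0 of 38 passed, with 9 at the smallest raw p. Any share could pass only if most of the 38 tests were at that smallest p. The adjusted result therefore cannot decide whether a single share changed. Without the library labelled KO untreated replicate 1, 13 of 38 were at the smallest raw exact permutation p, which adjusted to 0.0835, and again 0 passed.

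**Figure D3:**
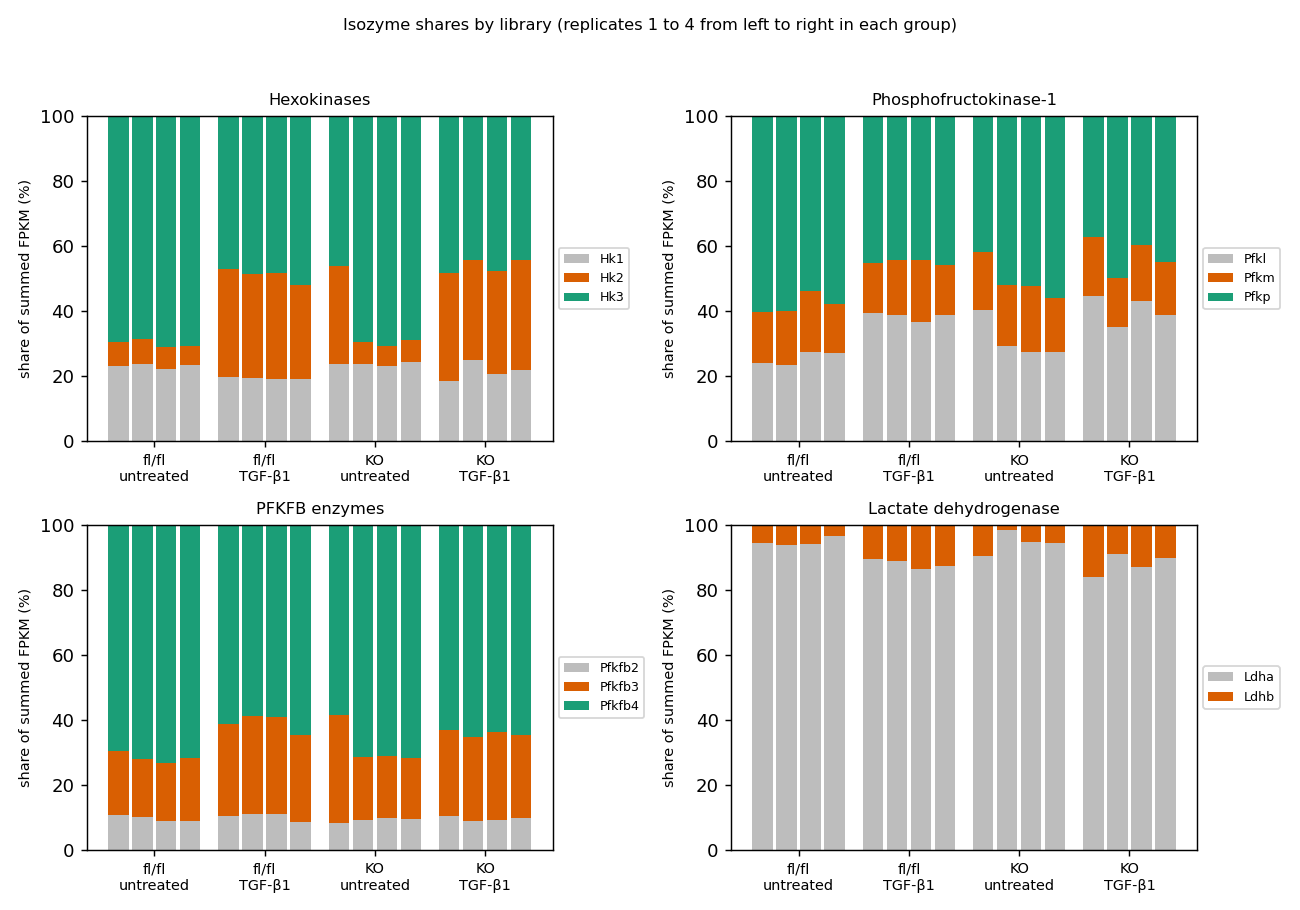
Share (%) of each isozyme in the summed FPKM of its step, for every library; bars stand for replicates 1 to 4 of each group from left to right. The Hk2 segment is near 7% in untreated libraries and near 32% with TGF-β1, and in the library labelled KO untreated replicate 1 it is at 30.4%.

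No member passed between the genotypes. Untreated KO against fl/fl gave 0 of 38 members called, against 0.0459% of all tested genes, with 4 members at an unadjusted edgeR p under 0.05. Without the library labelled KO untreated replicate 1 it was again 0 of 38, against 0.0994% of all genes, and 4 members at an unadjusted p under 0.05. Under TGF-β1 it was 0 of 38 in both fits, against 0.0382% and 0.0612% of all genes, with 1 and 2 members at an unadjusted p under 0.05. Of all tested genes, 10.9% and 12% had an unadjusted edgeR p under 0.05 untreated, with all libraries and without that library. Under TGF-β1 these shares were 5.61% and 6.68%. DESeq2 also called 0 members in either comparison.

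The smallest edgeR adjusted p of a member was 0.332, for Hk3 under TGF-β1 without that library. Hk3 was at 278 ± 32.0 CPM in fl/fl and 214 ± 16.6 CPM in KO TGF-β1 libraries (SD, n = 4 each), a log2 difference of -0.37 ± 0.09. The 4 KO values, 193 to 233 CPM, lay below the 4 fl/fl values, 244 to 320 CPM. For Hk2 under TGF-β1 the log2 difference was -0.24 ± 0.10 in that fit (edgeR adjusted p = 0.742), with KO at 226 to 281 CPM and fl/fl at 282 to 338 CPM. With all libraries, 27 of the 38 members had a negative log2 difference and 11 a positive one, under TGF-β1, with a median of -0.10 against 0.01 for all genes. That median was -0.03 without KO TGF-β1 replicate 1 and -0.04 without fl/fl TGF-β1 replicate 4.

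**Figure D4:**
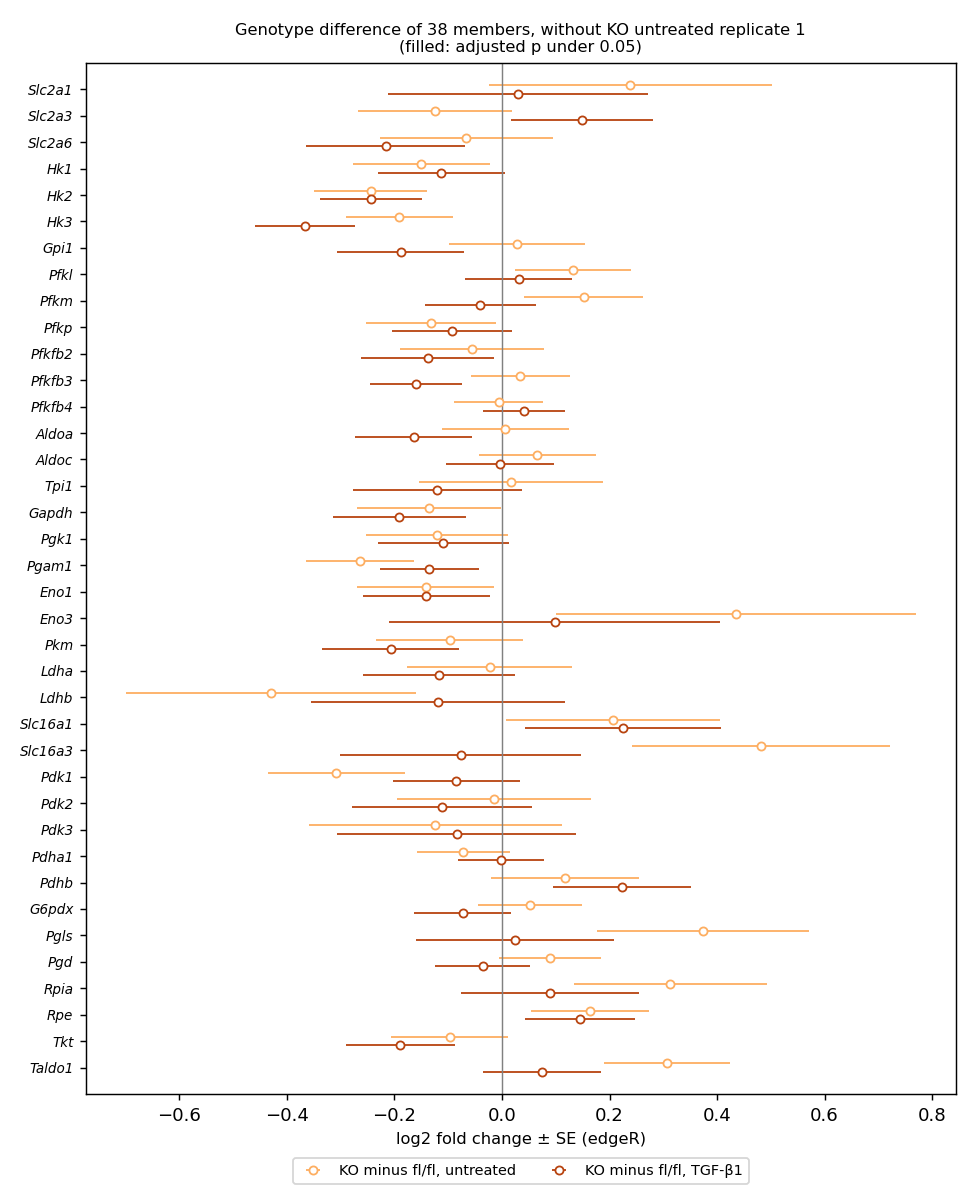
Log2 fold change ± SE (edgeR; x axis) of KO against fl/fl for the 38 tested members, untreated and with TGF-β1, from the fit without the library labelled KO untreated replicate 1. All points are open, since no member passed an adjusted p of 0.05, and they lie between -0.43 (Ldhb untreated) and 0.48 (Slc16a3 untreated).

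The TGF-β1 responses of the 2 genotypes were compared directly as a difference of differences. With all libraries 0 of 38 members and 0 of 13080 genes passed in edgeR, with 1 member and 275 genes at an unadjusted p under 0.05. Without the library labelled KO untreated replicate 1 it was again 0 and 0, with 0 members and 256 genes at an unadjusted p under 0.05, and DESeq2 with all libraries called 1 gene, no member. For Hk2 the responses differed by log2 0.00 without that library, with a 95% interval from -0.27 to 0.27, and by -1.02 ± 0.59 with it. For Ldhb the interval without it ran from -0.39 to 1.01, so a response weaker or stronger by that much in KO was not resolved.

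Several members varied between libraries of the same group, and the same libraries recurred. KO untreated replicate 2 was the highest of its group in 19 of 38 members. In it Slc2a1 was at 67.3 CPM, Slc16a3 at 119 CPM and Pgls at 123 CPM, where replicates 3 and 4 reached at most 29.6, 49.5 and 60.9 CPM. Fl/fl TGF-β1 replicate 4 was highest in 21 members and had the fewest detected genes, 14915 against 15834 or more elsewhere. KO TGF-β1 replicate 1 was lowest in 22 members and fl/fl untreated replicate 1 in 21. The part of these libraries in the results was not tested beyond leaving each out.

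**Figure D5:**
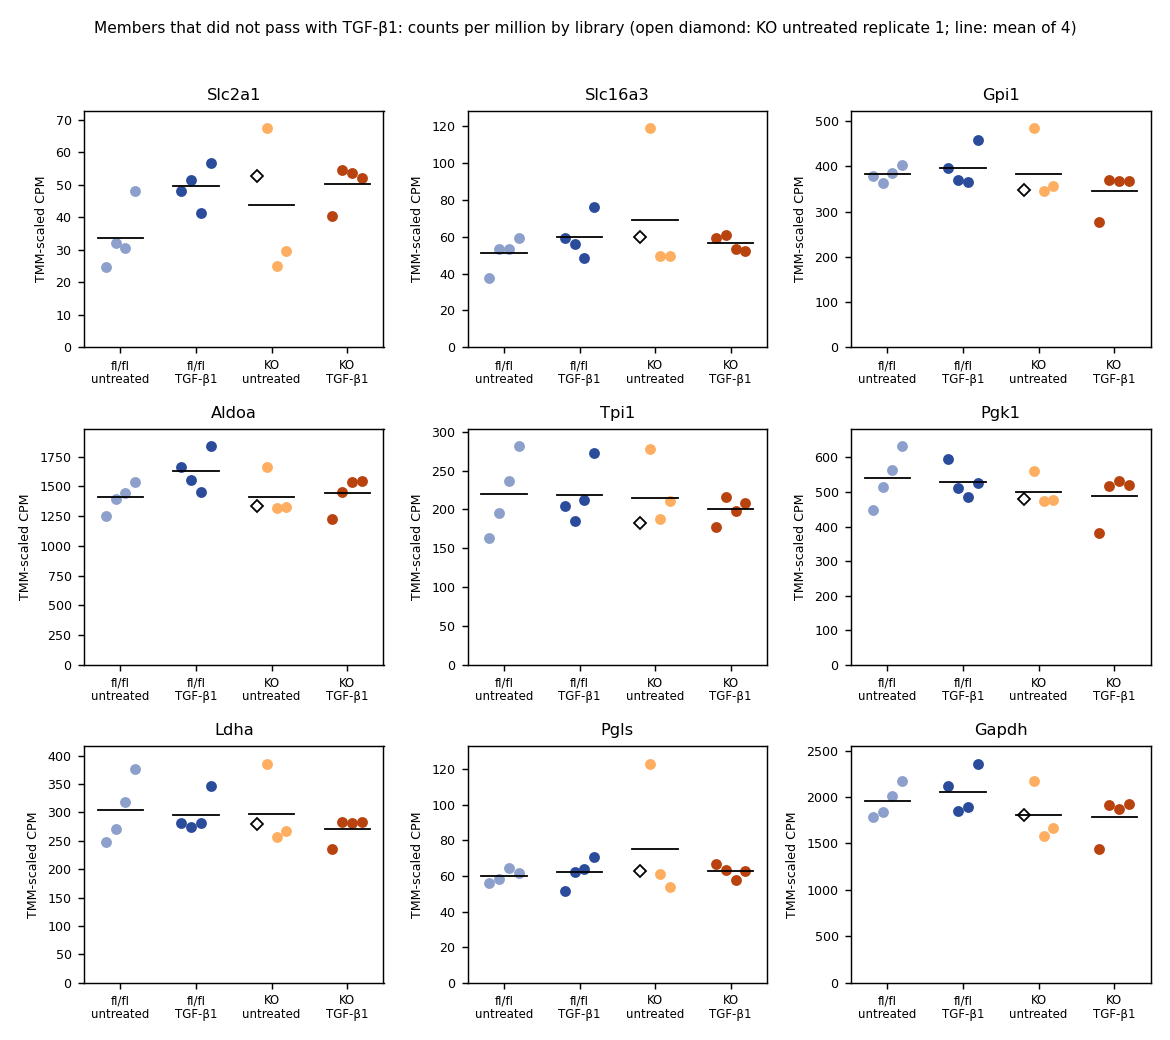
TMM-scaled CPM (y axis, from 0) of 9 members that did not pass with TGF-β1, by library and group; points are libraries, the open diamond is the library labelled KO untreated replicate 1, and lines are means of 4. The panels show only members in which KO untreated replicate 2 is the highest of its group, as for Gpi1 at 484 CPM against 346 to 358 CPM. Over the 38 tested members it was highest in 19 and lowest in 7.

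Marker lists of other cell types that moved with TGF-β1 were summed for each library. The stromal and osteoblast list (8 genes) was at 12.8 to 13.6 CPM in fl/fl untreated and 22.3 to 33.1 CPM in fl/fl TGF-β1 libraries. It was carried by Runx2, while Alpl, Lepr and Bglap stayed under 0.448 CPM. Pdgfrb, the next most abundant gene of the list, was lower in the mean, with overlapping libraries (1.46 to 4.73 and 0.546 to 3.03 CPM). The endothelial list (6 genes) was at 72.9 to 86.4 and 106 to 150 CPM, mostly Vwf. Pecam1 (0.174 to 0.757 and 0.94 to 1.46 CPM) and Cdh5 (0.0434 to 0.582 and 0.721 to 1.03 CPM) were also higher without overlap, Kdr overlapped (5.64 to 16.2 and 6.16 to 12.4 CPM), and Tek and Emcn stayed under 0.135 CPM. The neutrophil list (12 genes) was at 79.4 to 112 and 119 to 138 CPM, carried by Csf3r alone, with Ly6g and Retnlg at 0. Ngp, Ltf and S100a9 went the other way in their means (3.06 to 2.19, 2.77 to 1.5 and 2.1 to 0.93 CPM), with overlapping libraries. The remaining genes of that list stayed at 1.94 CPM or less. The T and NK cell list (8 genes) was lower, at 8.55 to 10.7 and 5.00 to 6.98 CPM, carried by Cd4, with Cd3e, Ncr1 and Gzma at 0. The summed macrophage list was at 20900 to 23090 and 16820 to 21440 CPM, its lower sum carried by Lyz2 (means of 12710 and 9212 CPM). The means of Cd68, Cd14 and Cd63 were also lower. Those of Csf1r (5224 and 6269 CPM), Mertk, Fcgr1, Itgam and Ctss were higher. The part of these lists in the changes of glycolytic genes was not tested.

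Among 118 further tested genes in 8 lists around the pathway (other carriers and isozymes, glycogen, gluconeogenesis, pyruvate entry, pentose and ribose genes, regulators and HIF-1 targets), 10 were higher and 10 lower with TGF-β1 in fl/fl, 16.9% against 15.5% of all genes. In KO, 2 were higher and 3 lower with all libraries (4.24% against 5.17%), and 10 and 9 without the library labelled untreated replicate 1 (16.1% against 15.2%). These shares are near those of the whole table. None of 12 other carriers and sugar kinases and none of 8 other glycolytic isozymes passed in either genotype. Of 8 other pentose and ribose genes H6pd alone passed. It encodes the dehydrogenase that makes NADPH in the endoplasmic reticulum, and it rose by log2 1.52 ± 0.28 in fl/fl (138 to 396 CPM, means of 4; edgeR adjusted p = 0.00199).

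Of 12 further genes of pyruvate entry and lactate transport, 1 rose and 3 fell in fl/fl (33.3%, against 15.5% of all tested genes). The carrier Slc16a6 rose by log2 0.66 ± 0.20 (edgeR adjusted p = 0.0326). Pdp1, the phosphatase that reactivates pyruvate dehydrogenase, fell by 0.69 ± 0.16 and Emb, a partner protein of lactate carriers, by 0.57 ± 0.14 (edgeR adjusted p = 0.00718 and 0.00887). A kinase and a phosphatase of the same complex, Pdk1 and Pdp1, thus both fell in fl/fl.

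Of 28 regulators, 3 rose and 3 fell in fl/fl (21.4%, against 15.5% of all tested genes). Vhl, which marks HIF-1α for degradation, rose by log2 2.45 ± 0.38 and Rptor, a subunit of mTORC1, by 0.96 ± 0.17 (edgeR adjusted p = 0.00104 and 0.00167). Txnip, which restrains glucose uptake, fell by 0.75 ± 0.17, and Pik3cd, a catalytic subunit of PI 3-kinase, by 0.60 ± 0.12 (edgeR adjusted p = 0.00667 and 0.00327). Of 20 HIF-1 targets outside glycolysis, 3 rose and 2 fell (25%, against the same 15.5%). The repressor Bhlhe40 rose from 7.19 to 70.4 CPM and the collagen hydroxylase P4ha1 from 49.5 to 86.8 CPM, whereas Ndrg1 fell from 54.8 to 19.9 CPM and Cited2 from 181 to 70.5 CPM (means of 4 fl/fl libraries; edgeR adjusted p = 0.002, 0.00156, 0.00104 and 0.00104).

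Of the glycogen genes 3 of 18 (16.7%) were called in fl/fl, and of the gluconeogenesis and shuttle genes 1 of 12 (8.33%), against 15.5% of all tested genes. Ppp1r3d, which brings a phosphatase to glycogen, rose by log2 0.77 ± 0.25. Gbe1, the branching enzyme, and Phka2, a subunit of phosphorylase kinase, fell by 0.68 ± 0.20 and 0.49 ± 0.13, and Got1, of the malate-aspartate shuttle, rose by 0.53 ± 0.17 (edgeR adjusted p between 0.0168 and 0.0448 for these 4). With all libraries, only Vhl, P4ha1, Pik3cd, Ndrg1 and Cited2 of these lists were called in KO. In the KO fit without the library labelled untreated replicate 1, H6pd, Vhl, Rptor, Bhlhe40, P4ha1 and Slc16a6 were again higher, and Txnip, Pik3cd, Ndrg1, Cited2, Gbe1, Phka2 and Pdp1 lower. Ppp1r3d, Got1 and Emb were not called in KO in that fit. That fit also called the glycogen genes Ppp1r3b and Pgm2l1 higher in KO (log2 0.73 ± 0.17 and 0.57 ± 0.17). It called the glycerol phosphate dehydrogenase Gpd2 lower in fl/fl and KO (log2 -0.58 ± 0.19 and -0.78 ± 0.20). In fl/fl it also had Tgm2, a transglutaminase of the HIF-1 list, higher (log2 2.62 ± 0.25). Tgm2 is not particular to fl/fl, since only up to 2 higher genes of a list are named. In KO it was at 32.9 to 87.3 CPM in untreated replicates 2 to 4 and 141 to 233 CPM with TGF-β1.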

How the data were processed

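Polyadenylated RNA of 16 libraries was read as 150 bp pairs, per the labels. The tools named in the submitters' processing notes are Cufflinks 2.1.1, TopHat2 2.0.9 and HTSeq 0.6.1, and the builds named there are GRCm38.p6 and mm10; their roles and options, including strand, are not given in the sources used here. The deposited tables hold raw read counts and FPKM. The FPKM that the authors deposited equalled count / gene length / library total within 0.1% for 100% of positive values.

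Counts were scaled by TMM in edgeR 4.0.16 (R 4.3.3), filterByExpr kept 13080 of 35275 genes, and 1 quasi-likelihood model with a mean per group was fitted to all 16 libraries. An adjusted p is Benjamini-Hochberg over the 13080 genes, at 0.05. CPM values are on the TMM-scaled total. Within each genotype, TGF-β1 was compared with no treatment, and the genotypes were compared within each treatment and for their responses. The fit without KO untreated replicate 1 kept the same genes. Isozyme shares of FPKM were compared by exact two-sided permutation tests. Alternatives were RLE factors, no filter, DESeq2 1.42.0, limma 3.58.1 on log2(FPKM + 0.1), only the groups compared, a replicate block, and leaving out each library.

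Same-numbered untreated and TGF-β1 libraries had weakly correlated deviations from their group means in fl/fl (r from 0.123 to 0.181) and in KO (0.075 to 0.239). The own number was the best match for replicates 2 and 4 in fl/fl and for replicates 3 and 4 in KO. Whether replicate numbers pair libraries was thus not settled in either genotype. The main fit has no pairing, and the replicate block, also within each genotype, was an alternative. No 2 libraries were identical. Near-identical copies are genes sharing at least 150 bases at 97% identity. Named genes are the members called in either fit, and of each surrounding list up to 2 higher and 2 lower genes with the smallest p. Members and lists were chosen with earlier results of these data known. Reads carry no molecular identifiers.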

Additional observations from a re-analysis of the deposited data

Results flagged for a closer look

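In each group of 4 libraries, the highest or lowest value of a member was compared with the rest by Dixon's ratio at its 95% critical value. Of 152 groups tested, 18 exceeded it. About 1 in 20 would for independent, normally distributed values. The members share the same 16 libraries, however, so the 18 are not independent and no excess is read from them. No explanation was weighed for them.

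In the library labelled KO untreated replicate 1, Hk2 stood at 229 CPM against 45.5 to 46.7 CPM in the other 3, Pfkfb3 at 56.4 against 29.7 to 31.6 CPM, and G6pdx at 334 against 445 to 461 CPM. In KO untreated replicate 2, the high values were Gpi1 at 484 CPM (346 to 358 in the others), Aldoa at 1659 CPM (1322 to 1333), Pgk1 at 562 CPM (474 to 481), Slc16a3 at 119 CPM (49.3 to 59.8) and Pgls at 123 CPM (53.8 to 62.6).

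In fl/fl TGF-β1 replicate 4, Pgam1 was at 202 CPM (156 to 163 in the others), Eno3 at 5.79 CPM (1.94 to 2.19) and Ldha at 347 CPM (275 to 282). In KO TGF-β1 replicate 1 the low values were Gpi1 at 278 CPM (368 to 370), Gapdh at 1445 CPM (1872 to 1924), Pgk1 at 381 CPM (516 to 531), Pkm at 1826 CPM (2654 to 2791), Ldha at 236 CPM (282 to 284) and G6pdx at 282 CPM (344 to 355). In KO TGF-β1 replicate 2, Pdk2 was at 18.9 CPM, below the 23.1 to 23.9 CPM of the other 3.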

How the results depend on the processing

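Many of the 708 alternative values are numbers of calls, which have no direction to reverse. The rest are log2 differences of members called with all libraries or without KO untreated replicate 1, and none changed sign. Since these members were picked by their calls, a kept sign was likely from the start. Members called in neither fit were not followed. In fl/fl, Hk2, Pfkl, Pfkfb3 and Ldhb passed under every alternative that gave an adjusted p (DESeq2 gave none for Hk2), and the number of called members ran from 4 to 9 when a library was left out and from 6 to 10 otherwise. In KO, 1 member was called with all libraries, and 0 to 8 when a library was left out. That KO count was 3 with DESeq2, 0 without the filter, 0 with only the groups compared and 2 with limma. With the replicate block it was 2, with the block within genotype 4, and with that block and without KO untreated replicate 1 it was 8; the planned replicate block left 7 fl/fl members called, with Pfkp in place of Pgam1 (edgeR adjusted p = 0.0783). Same-numbered libraries did not all correlate best with their own number. The KO count was 9 without KO untreated replicates 1 and 2, and 9 without KO untreated replicate 1 and fl/fl TGF-β1 replicate 4, alternatives chosen after seeing the data, as was the block within genotype. Without 1 library, 10.5% to 18.1% of all tested genes were called in fl/fl and 0.711% to 15.2% in KO. With the block within genotype these shares were 16.8% and 7.6%. For the other alternatives no such share is given, so their counts are not a result about the members.

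Over all genes, KO calls numbered 676, and 1093 with DESeq2, 446 without the filter, 0 with only the groups compared, 2272 with the block within genotype and no KO untreated replicate 1, 2501 and 1789 in the fits without 2 libraries, and 93 to 1989 without 1 library. In fl/fl they were 1379 to 2372 without 1 library. Untreated KO against fl/fl called 6, with 61 in DESeq2, 10 without the filter, 17 without KO untreated replicate 1 and fl/fl TGF-β1 replicate 4, and 4 to 13 without 1 library. Under TGF-β1 the 5 became 24 in DESeq2, 13 and 10 in the fits without 2 libraries, and 4 to 8 without 1 library. The difference of the responses had 1 in DESeq2 and 0 otherwise. The cause was not tested. Eno3, the tested member with the fewest counts, had 32 to 111 per library.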
